A study of Mus musculus with 25 samples.

Results

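The enzymes of lower glycolysis and of lactate formation were followed as a set of 10 genes, Aldoa, Tpi1, Gapdh, Pgk1, Pgam1, Eno1, Pkm, Pklr, Ldha and Ldhb, chosen by name out of 26420 gene names in the value table. On the array these genes had 28 probes, of which 27 were among the 40561 probes of the normalised value table. The probe not in that table was 1 of the 4 Pkm probes. Each gene is described by its brightest probe (the highest mean over arrays), and its other probes are given where they differ.

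Expression was measured in perigonadal white adipose tissue, the fat depot beside the male gonads, of male C57BL6/J mice. Every mouse was fasted for 24 h and then refed for 18 h with food and drinking water holding 20% glucose, a regimen that activates ChREBP. The ChREBPβ WT group (ChREBPbeta in the labels, 7 arrays) and the ChREBPβ KO group (6 arrays) came from a line in which the Mlxipl exon that starts the ChREBPβ transcript was cut out by Cas9, in the germline and so in all tissues. The total ChREBP WT group (7 arrays) and the total ChREBP KO group (5 arrays) came from a separate Mlxipl-null line, in which neither ChREBPα nor ChREBPβ is made. There was 1 array per mouse, and all 4 groups were represented in each of the 4 wash batches. The ages of the mice are not given in the sources used here.

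Lower glycolysis takes fructose 1,6-bisphosphate to pyruvate. Aldolase splits the sugar, triosephosphate isomerase interconverts the triose phosphates, and glyceraldehyde-3-phosphate dehydrogenase, phosphoglycerate kinase, phosphoglycerate mutase, enolase and pyruvate kinase complete the route, while lactate dehydrogenase interconverts pyruvate and lactate. ChREBP, the product of Mlxipl, is a glucose-responsive transcription factor that binds with Mlx to paired E box-like motifs called carbohydrate response elements, and the liver pyruvate kinase gene Pklr is the textbook example of its targets. In fat, pyruvate supplies acetyl-CoA for fatty acid synthesis, and adipocytes also release lactate.

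Probe sequences of the genes that changed with loss of both isoforms, and of Pklr, are shown first. Except for Pklr, these are not the brightest probes, by which the genes are described below. Each of these 60-base probes has at least 1 reading frame without a stop codon. Coordinates follow the array design (mm9), and capitals mark the longest stretch that is also found in a probe carrying another gene's name.
Eno1, chr4:149618134-149618359, plus strand: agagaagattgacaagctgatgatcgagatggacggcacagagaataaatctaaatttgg
Pkm, chr9:59518501-59519397, plus strand: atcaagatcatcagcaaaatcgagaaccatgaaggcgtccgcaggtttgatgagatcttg
Ldha, chr7:54103010-54103069, plus strand: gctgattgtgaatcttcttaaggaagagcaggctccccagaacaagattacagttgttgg
Gapdh, chr6:125113229-125113288, minus strand: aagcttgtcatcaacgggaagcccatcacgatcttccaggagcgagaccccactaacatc
Gapdh, chr6:125113312-125113371, minus strand: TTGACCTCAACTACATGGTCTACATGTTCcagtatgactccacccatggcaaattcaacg
Tpi1, chr6:124761923-124761982, minus strand: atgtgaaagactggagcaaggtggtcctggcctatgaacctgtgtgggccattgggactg
Pklr, chr3:88948907-88949425, plus strand: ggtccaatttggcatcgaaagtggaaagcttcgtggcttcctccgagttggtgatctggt
The Eno1, Pkm and Pklr intervals of the design are longer than the 60 bases of their probes. Of the 7 Gapdh probes, 6 shared a run of at least 20 bases with a probe carrying another name, and so did the Eno1 probe with the highest mean, of whose 60 bases 53 in a row were also in the probe named Eno1b. The share of signal that such transcripts contribute was not tested. The Eno1, Pkm, Ldha, Tpi1 and first Gapdh sequences printed above shared no such run.

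Across the arrays, the median raw intensity was 84 to 127, 73.0% to 77.9% of spots were well above background, and 0 spots were saturated. Precision is limited by how many arrays a group has. All member probes in the value table were well above background on all 25 arrays. Mlxipl, the targeted gene, lay between 15.74 and 16.24 (log2 level) on the total ChREBP WT arrays and between 14.07 and 14.29 on the total ChREBP KO arrays, a difference of -1.77 (limma, adjusted p = 1.11e-08), and of -0.74 in the ChREBPβ line (adjusted p = 0.116). Whether its probe lies in deleted sequence was not tested. All 10 adipocyte markers were each well above background on some or all arrays. Their summed level was 1570000 to 1620000 in total ChREBP KO and 1340000 to 1500000 in total ChREBP WT, without overlap, and its part in the differences below was not tested. The markers of liver, a tissue that should be absent from a fat depot, summed to 135000 to 1210000 in ChREBPβ WT, 48400 to 925000 in ChREBPβ KO, 5190 to 185000 in total ChREBP WT and 5250 to 7570 in total ChREBP KO. In tissue RNA, fewer cells of a type and less RNA per cell cannot be told apart.

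Loss of both ChREBP isoforms lowered 4 of the 10 enzymes and raised 1. Eno1 (enolase), Pkm (the pyruvate kinase of most tissues), Ldha (the muscle-type lactate dehydrogenase subunit) and Gapdh fell, Tpi1 rose, and the other 5 did not pass the test (limma, adjusted p under 0.05 over all probes). Over all probes, 8.79% were called in this comparison, 5.35% higher and 3.44% lower. The members' median difference was -0.19 on the log2 scale, and the median of all probes was 0.02. Their differences ran from -1.37 to 0.39. The 5 calls were the same under each of the 12 alternative settings and with each of the 12 arrays of the line left out in turn.

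Eno1 changed most. Its log2 level was 16.71, 17.00 and 17.14 (lowest, median and highest) in total ChREBP WT and 15.66, 15.48, 15.50, 15.73 and 15.45 in the 5 total ChREBP KO arrays. The groups were more than 0.9 log2 units apart at their nearest arrays. The difference was -1.37 (SE 0.08, adjusted p = 1.48e-10), which left 38.6% of the wild-type level. The Eno1 probe printed above fell further, with a difference of -1.87 (adjusted p = 2.8e-09), to 27.3% of the wild-type level. The remaining Eno1 probe fell by 1.32.

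Pkm had levels of 15.85, 15.95 and 16.15 in total ChREBP WT and 14.88, 14.89, 14.86, 14.94 and 15.13 in total ChREBP KO. The groups did not overlap. The difference was -1.04 (SE 0.08, adjusted p = 1.73e-08), leaving 48.8% of the wild-type level. The other Pkm probes in the value table gave -1.09 and -1.30 (adjusted p = 7.81e-09 and 7.07e-06). Pkm transcripts are spliced into M1 and M2 forms, and which form each probe reads was not tested.

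Ldha, whose enzyme favours lactate formation, was at 17.62, 17.67 and 17.77 in total ChREBP WT and at 17.11, 17.18, 17.20, 17.16 and 17.20 in total ChREBP KO. The difference was -0.53 (SE 0.05, adjusted p = 2.05e-07), leaving 69.4%. The internal Ldha probe printed above fell by 1.07, to 47.7% of the wild-type level. Ldhb, the heart-type subunit, did not pass the test at -0.05 (SE 0.18, 95% interval -0.42 to 0.31). Its arrays lay between 13.42 and 14.24 in total ChREBP WT and between 13.58 and 14.07 in total ChREBP KO, and the ranges overlapped.

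Gapdh, often used as a reference gene, was at 17.96, 18.01 and 18.06 in total ChREBP WT and at 17.57, 17.57, 17.62, 17.58 and 17.59 in total ChREBP KO. No array of either group came near the other. By its brightest probe the difference was -0.43 (SE 0.06, adjusted p = 1.65e-05), or 74.3% of the wild-type level. Its other 6 probes fell by 0.96 to 1.23, to between 42.6% and 51.5%, and the one Gapdh sequence shown without a shared run fell by 1.20. The choice of probe thus moved the Gapdh change by over 1.5 times, and the mean over its 7 probes was -0.98. For Ldha, the mean over both probes was -0.80.

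Tpi1, which keeps the triose phosphates in balance, went the other way. Its level was 14.93, 15.20 and 15.28 in total ChREBP WT and 15.48, 15.63, 15.63, 15.57 and 15.46 in total ChREBP KO. Every knockout array was above every wild-type array. The difference was 0.39 (SE 0.08, adjusted p = 0.00237), or 131% of the wild-type level. Another pair of Tpi1 probes gave like sizes of 0.39 and 0.37 that did not pass the test (adjusted p = 0.111 and 0.0816). The fourth probe, dim at a raw intensity of 50 to 80, gave 0.03.

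The enzymes between Gapdh and enolase, and aldolase above them, had smaller differences. Aldoa, the muscle-type aldolase, was at 18.26 to 18.51 in total ChREBP WT and 18.10 to 18.17 in total ChREBP KO, so that the groups did not overlap, but its difference of -0.20 (SE 0.09) had an adjusted p of 0.245. Pgk1 gave -0.18 (SE 0.08, adjusted p = 0.218) and Pgam1 gave -0.11 (SE 0.07, adjusted p = 0.446), with overlapping groups. Counting by overlap alone, 5 members were wholly lower and 1 wholly higher in total ChREBP KO, where 6.8% of all probes did not overlap, 2.88% lower and 3.92% higher. The member with no overlap and no call was Aldoa.

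**Figure D1:**
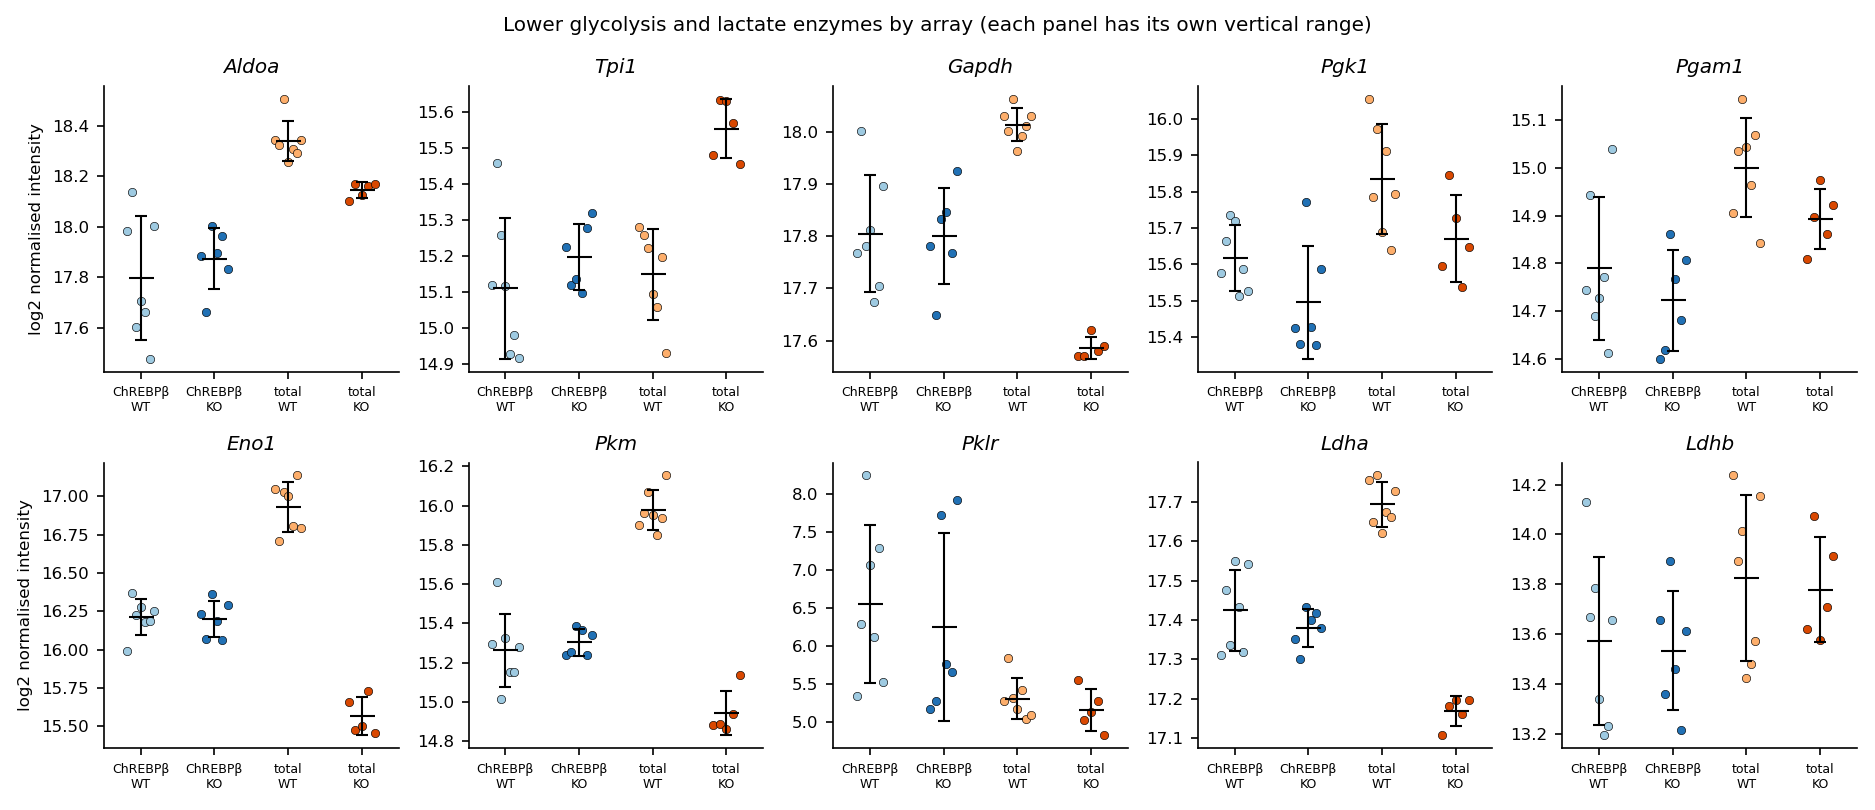
Log2 normalised intensity (vertical axis) of the 10 genes on every array, by group (horizontal axis), with 1 point per array and a bar for the mean ± SD. The total ChREBP KO arrays lie below those of the other 3 groups for Eno1, Gapdh and Ldha, and above them for Tpi1, except that 1 ChREBPβ WT array reaches the lowest total ChREBP KO array at 15.46.

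The 4 wash batches gave the same directions for the 5 called genes. Within batches, the Eno1 difference ran from -1.51 to -1.21, Pkm from -1.15 to -0.76, Ldha from -0.63 to -0.45, Gapdh from -0.46 to -0.38 and Tpi1 from 0.33 to 0.44. Pkm was least lowered in wash batch 3, which, like batches 2 and 4, held 1 total ChREBP KO array. Ldhb had no steady direction, with -0.32 in wash batch 2, 0.39 in wash batch 3 and -0.57 in wash batch 4. Pklr was at -0.09, -0.71 and -0.40 in batches 1, 2 and 3 and at 0.37 in batch 4.

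Probes of 1 gene differed in the size of the change, and for Gapdh, Ldha and Pkm the dimmest probe fell most. For Gapdh, the probe with a mean of 18.01 in total ChREBP WT fell by 0.43, and that with the lowest mean of its 7 fell by 1.23. For Ldha, the brighter probe fell by 0.53 and the dimmer by 1.07. For Pkm, the dimmest of the 3 probes had the lowest value, -1.30. Other genes did not follow this order. Tpi1 had 0.39 by its brightest probe and 0.03 by its dimmest, Ldhb had -0.05 and -0.02, and for Eno1 the dimmest probe fell by 1.32 and the middle one had -1.87. Brightness here is a property of a probe and does not compare the amounts of transcripts, and its part in the sizes was not tested.

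**Figure D2:**
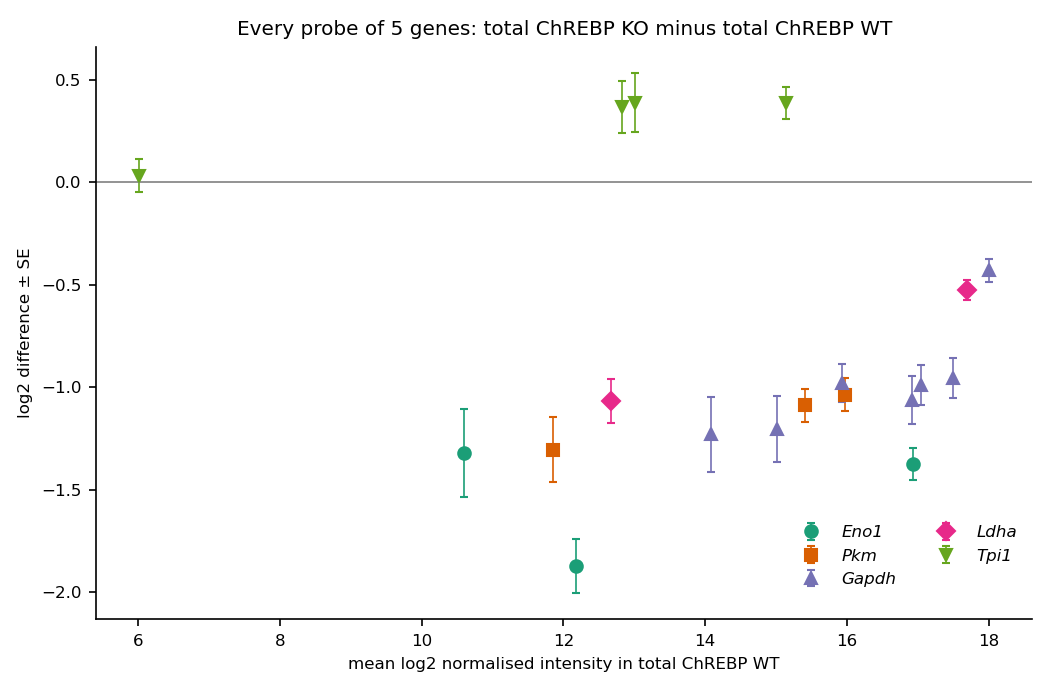
Difference between total ChREBP KO and total ChREBP WT (vertical axis, log2, with the SE as a bar) of every tested probe of 5 genes against the mean log2 intensity of the probe in total ChREBP WT (horizontal axis). All probes of Eno1, Pkm, Gapdh and Ldha lie below 0, and the brightest Gapdh and Ldha probes have the smallest falls of their genes, 0.43 and 0.53.

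When ChREBPβ alone was missing, none of the 10 enzymes was called and none reached an unadjusted p under 0.05. Over all probes, 0 of 40561 were called (limma, 0%), 9.02% had an unadjusted p under 0.05, and 0.069% did not overlap between the groups. The members' median was -0.03 beside 0.02 for all probes, and 7 of the 10 were below 0. The intervals of the genes that fell without both isoforms were narrow. Eno1 was at 15.99, 16.22 and 16.37 in ChREBPβ WT and 16.06, 16.21 and 16.36 in ChREBPβ KO, a difference of -0.02 with a 95% interval of -0.17 to 0.14. For Pkm the difference was 0.04 (-0.12 to 0.20), for Ldha -0.05 (-0.15 to 0.05) and for Gapdh -0.01 (-0.12 to 0.10). The 95% intervals of these 4 genes in the ChREBPβ line and in the total ChREBP line did not meet. Tpi1 gave 0.08 (-0.08 to 0.23), which met its interval of 0.22 to 0.55 in the total ChREBP line.

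Of all 10 genes, Pklr and Ldhb had the widest intervals. Aldoa gave 0.07 (-0.11 to 0.26), Pgk1 -0.13 (-0.29 to 0.03) and Pgam1 -0.07 (-0.22 to 0.08). For Ldhb, -0.05, the interval reached from -0.39 to 0.30, and for Pklr, -0.34, from -1.29 to 0.61. In wash batch 2, which held 1 array of each ChREBPβ group, all 10 genes were lower in the knockout, Gapdh by 0.35 and Aldoa by 0.48, whereas Gapdh was at 0.01, 0.11 and 0.06 in the other batches. The wild-type array of that batch, replicate 2, had the highest Gapdh (18.00), Pkm (15.61) and Tpi1 (15.46) of its group.

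**Figure D3:**
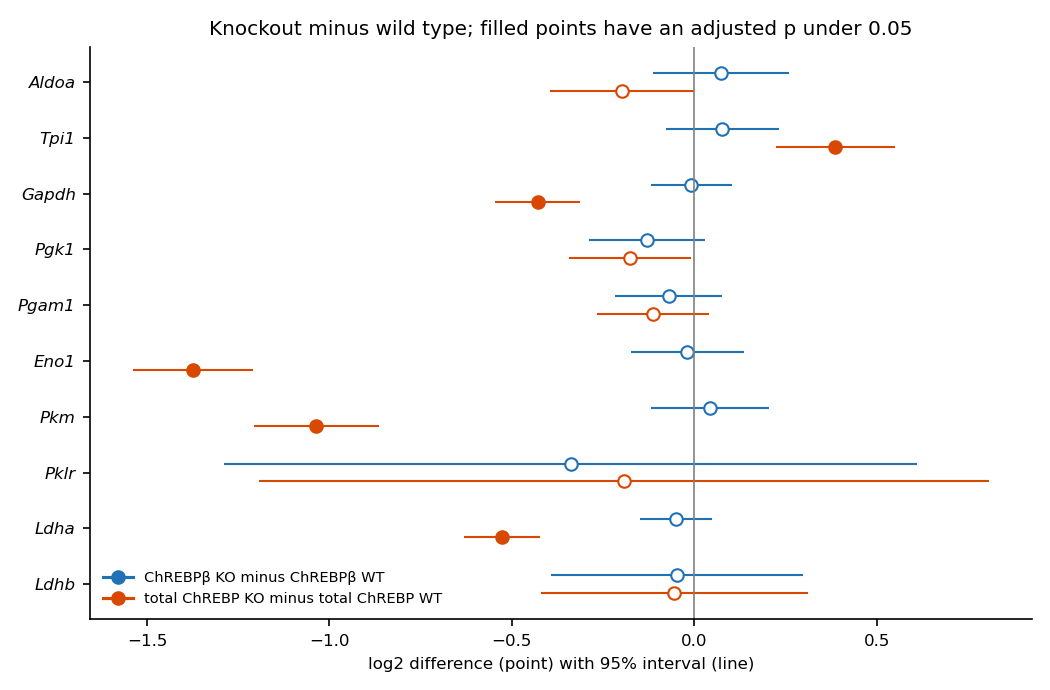
Difference between knockout and wild type (horizontal axis, log2, points) with its 95% interval (lines) for each gene (vertical axis), in the ChREBPβ line and in the total ChREBP line. Filled points are called. The 2 intervals stand apart for Eno1, Pkm, Ldha and Gapdh, and overlap for the other 6 genes.

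The knockout effects of the lines differed for the 4 genes that fell. The total ChREBP effect minus the ChREBPβ effect was -1.36 for Eno1 (SE 0.11, adjusted p = 7.79e-08), -1.08 for Pkm (SE 0.11, adjusted p = 3.26e-06), -0.48 for Ldha (SE 0.07, adjusted p = 0.000155) and -0.42 for Gapdh (SE 0.08, adjusted p = 0.00183). These are values of the brightest probes. The other Gapdh probes gave -1.09 to -0.92 and the other Ldha probe -1.01, all called. The other Eno1 probes gave -1.83 and -1.28, and the other Pkm probes in the value table -1.26 and -1.07, also all called. Over all probes, 3.21% were called in this comparison, 1.29% higher and 1.92% lower. The rise of Tpi1 was not shown to differ between the lines (0.31, SE 0.11, adjusted p = 0.154). The members' median was -0.16 against 0.00 for all probes. Within wash batches the Eno1 value ran from -1.61 to -0.91 and the Pkm value from -1.24 to -0.74. That of Gapdh was -0.45, -0.52 and -0.52 in batches 1, 3 and 4 and -0.03 in batch 2, where each group had 1 array.

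The wild types of the lines were not alike. Of the 10 genes, 8 were called between total ChREBP WT and ChREBPβ WT, namely Aldoa, Gapdh, Pgk1, Pgam1, Eno1, Pkm and Ldha higher and Pklr lower in total ChREBP WT. Over all probes 22% were called, 14.7% higher and 7.26% lower. The members' median was 0.24 and that of all probes 0.05. The count fell to 5 without total ChREBP WT replicate 4 and to 5 without ChREBPβ WT replicate 7, and Pgk1, Pgam1 and Pklr were the genes lost. It was also 4 or 5 under 5 other settings given in the closing section. Gapdh, read by its brightest probe, was lost in 4 of these.

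Of the genes that were higher, Eno1 and Pkm differed most, by 0.72 (SE 0.07, adjusted p = 1.83e-06) and 0.71 (SE 0.07, adjusted p = 3.44e-06). Aldoa was higher by 0.54 and Ldha by 0.27. These 4 genes did not overlap between the wild types, where 5.06% of all probes did not, 3.37% higher and 1.69% lower. Eno1, Pkm and Ldha were called under every alternative run for this comparison and with every array left out, and Aldoa under all but the fit with a liver score (adjusted p = 0.0582). Gapdh was higher by 0.21 and Pgk1 and Pgam1 by 0.22 and 0.21. Markers of other tissues moved in this comparison too. Those of liver were lower (11 of 11), those of skeletal muscle higher (5 of 7) and those of red cells higher (2 of 5). Summed over all 9 muscle markers on the array, the median level was 2010 in total ChREBP WT and 2510 in ChREBPβ WT. The ranges of these sums overlapped. Of the kidney markers 3 of 6 were lower, of the lymphocyte markers 1 of 9 lower, of the epididymis markers 1 of 3 higher, and of the adipocyte markers 3 of 10 higher and 2 lower. No macrophage, endothelial, mesothelial or testis marker was called. The line and these markers cannot be told apart. In the total ChREBP line, the called markers were 4 of adipocytes (3 higher, 1 lower) and 1 of liver (lower), and in the ChREBPβ line 0 of any list was called with limma.

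Since the comparisons of knockouts and of wild types share total ChREBP WT, the order of the 4 groups is given by levels. For Eno1 the total ChREBP KO arrays (highest 15.73) were below every array of the ChREBPβ line (lowest 15.99), which were below every total ChREBP WT array (lowest 16.71). Ldha had the same order, with 17.20 as the highest in total ChREBP KO, 17.30 to 17.55 in the ChREBPβ line and 17.62 as the lowest in total ChREBP WT. Pkm overlapped at the lower step, where total ChREBP KO reached 15.13 and ChREBPβ WT went down to 15.02. Gapdh was lowest in total ChREBP KO (17.62 at most against 17.65 at least elsewhere), and ChREBPβ WT overlapped both ChREBPβ KO (17.93 at most) and total ChREBP WT (17.96 at least), which did not overlap each other. Aldoa had another order, with both ChREBPβ groups at 17.48 to 18.14, total ChREBP KO at 18.10 to 18.17 and total ChREBP WT at 18.26 or more. Tpi1 was alike in ChREBPβ WT, ChREBPβ KO and total ChREBP WT, at means of 15.11, 15.20 and 15.15, and 15.55 in total ChREBP KO. Ldhb, Pgk1 and Pgam1 overlapped among all groups.

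Pklr, the pyruvate kinase of liver and red cells, was dim in these samples, at raw intensities of 25 to 302. Its level was 8.24, 7.28, 7.06, 6.28, 6.12, 5.53 and 5.35 in the 7 ChREBPβ WT arrays, and the summed liver markers of the same arrays were 1210000, 985000, 879000, 538000, 815000, 249000 and 135000. In ChREBPβ KO it was 7.92, 7.72, 5.76, 5.65, 5.28 and 5.17, with liver sums of 925000, 844000, 242000, 252000, 48400 and 152000. The 5 arrays of this line with Pklr above 7 had liver sums of at least 844000, and the other 8 were at 815000 or less. In total ChREBP WT, Pklr was at 5.04, 5.28 and 5.84 (lowest, median and highest), and in total ChREBP KO at 5.55, 5.02, 5.13, 5.28 and 4.83.

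The knockout comparisons gave no call for Pklr, with -0.34 (SE 0.46) in the ChREBPβ line and -0.19 (SE 0.48) in the total ChREBP line. Between the wild types it was lower in total ChREBP WT by 1.25 (SE 0.44, adjusted p = 0.0453), a call that held in 3 of 14 fits with 1 array left out and in 6 of 11 alternatives. All 11 liver markers were also lower there, with a median of -4.72. With a liver score as a covariate, the Pklr value of that comparison turned to 0.59 (adjusted p = 0.556), that of the total ChREBP line to 0.61 and that of the ChREBPβ line to 0.15. The same covariate left the 5 calls of the total ChREBP line in place. The source of the liver transcripts was not tested.

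**Figure D4:**
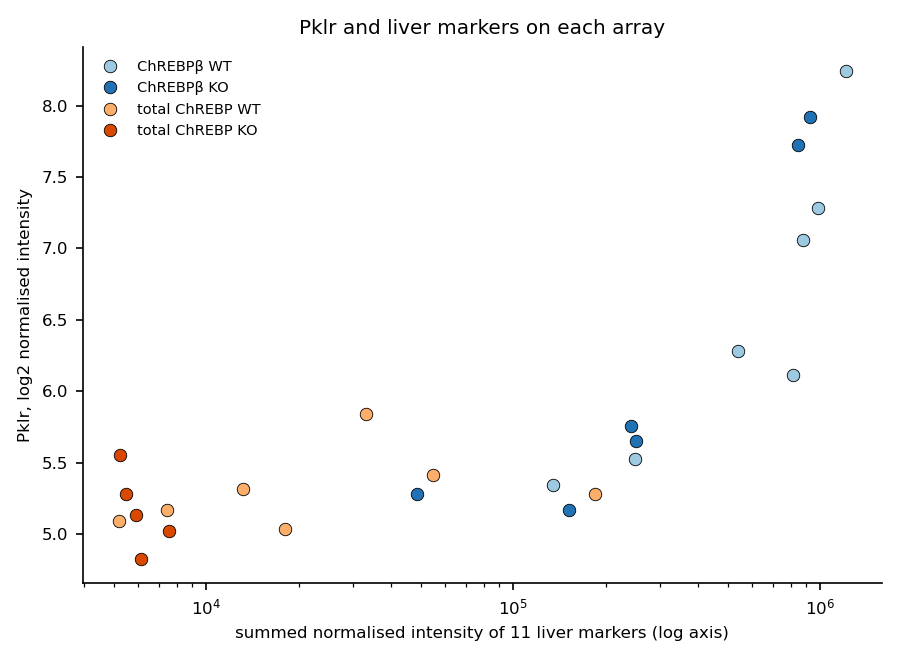
Log2 normalised intensity of Pklr (vertical axis) against the summed intensity of 11 liver markers (horizontal log axis), 1 point per array in the colour of its group. Every array with Pklr above 6 is from the ChREBPβ line and has a liver sum of at least 538000.

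The reference sequence ahead of the start sites (RefSeq, GRCm38.p6) was searched for motifs on both strands, in the 250 bases before each of the 17 starts listed for the 10 genes. The strict paired motif CACGNGNNNNNCNCGTG, a form of the carbohydrate response element, was in 13 of all 32851 such windows (0.0396%), and 1 of these belonged to Pklr. Its looser form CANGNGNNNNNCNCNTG was in 0.454% of windows, and among the members also in that Pklr window alone. The Pklr pair begins 170 bases before the start, and the 30 bases around it are shown with the pair in capitals.
Pklr, chr3:89136446-89136475, plus strand: tggacgcCACGGGGCACTCCCGTGgttcct
The single E box CACGTG was in 6.02% of all windows, and among the members in 1, of Ldha, which held it 145 and 48 bases before the start. The core ACGTG, which binds HIF-1 and is contained in CACGTG, was in 16.6% of all windows. Among the members it was in at least 1 window each of Ldha, Aldoa, Pkm, Pgam1 and Pgk1. Some members have more than 1 window, so this list by gene does not compare with the share by window. Of the sequences that bind HIF-1, ACGTG alone was searched for. The Ldha window is shown with CACGTG and ACGTG, on either strand, in capitals. It is followed by 1 window each of the other genes that fell, which hold neither CACGTG nor ACGTG. The second Pkm window, not shown, holds ACGTG 75 bases before its start.
Ldha, chr7:46845554-46845803, plus strand: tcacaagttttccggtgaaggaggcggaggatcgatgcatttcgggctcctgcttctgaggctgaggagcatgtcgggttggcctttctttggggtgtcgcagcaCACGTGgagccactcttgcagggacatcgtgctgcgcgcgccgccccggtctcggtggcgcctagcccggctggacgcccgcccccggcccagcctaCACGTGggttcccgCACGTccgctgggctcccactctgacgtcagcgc
Eno1, chr4:150236458-150236707, plus strand: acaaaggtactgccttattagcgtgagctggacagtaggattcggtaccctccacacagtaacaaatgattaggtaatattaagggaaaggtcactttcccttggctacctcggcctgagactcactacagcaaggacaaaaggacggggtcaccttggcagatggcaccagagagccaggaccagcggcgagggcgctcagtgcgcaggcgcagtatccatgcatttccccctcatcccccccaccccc
Pkm, chr9:59656326-59656575, plus strand: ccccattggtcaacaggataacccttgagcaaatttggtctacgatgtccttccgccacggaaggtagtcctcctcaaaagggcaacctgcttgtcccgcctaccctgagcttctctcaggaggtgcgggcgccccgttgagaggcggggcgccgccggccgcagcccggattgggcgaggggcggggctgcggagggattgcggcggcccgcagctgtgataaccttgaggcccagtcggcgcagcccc
Gapdh, chr6:125165774-125166023, minus strand: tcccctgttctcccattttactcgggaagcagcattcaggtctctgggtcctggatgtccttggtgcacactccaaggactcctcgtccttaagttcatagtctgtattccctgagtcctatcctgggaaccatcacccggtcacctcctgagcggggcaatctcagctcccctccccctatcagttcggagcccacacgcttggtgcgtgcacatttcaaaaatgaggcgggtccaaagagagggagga
A match describes letters in a window, and more distant sequence was not searched. Pklr, the gene with the strict pair, was dim and its differences had wide intervals, so its missing calls do not show how the pair acts in fat. The windows of Eno1, Pkm and Gapdh have none of the paired motifs. The part of any motif in the changes was not tested.

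The steps around the lower pathway were read from lists. Of 12 upper glycolysis genes, 3 fell and 1 rose in total ChREBP KO, where 3.44% of all probes were lower and 5.35% higher, and their median was -0.04. Hk2, a hexokinase that traps glucose, fell by 1.54 (adjusted p = 2.95e-08). Pfkl, a phosphofructokinase subunit, fell by 0.88 and Gpi1, glucose-6-phosphate isomerase, by 0.26. Pfkfb3, which makes the phosphofructokinase activator fructose 2,6-bisphosphate, rose by 0.46 (adjusted p = 0.0293). Of the other isoenzymes of the lower pathway, 10 of 11 were measured and 0 were called with limma.

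The transport and use of pyruvate and lactate were read next, against the same 3.44% of all probes called lower and 5.35% called higher. Of the 7 transport genes, 3 fell and 0 rose, with a median of -0.31. Slc16a1, a monocarboxylate transporter that moves lactate across the plasma membrane, fell by 0.61 (adjusted p = 0.00267). Mpc1 and Mpc2, the subunits of the mitochondrial pyruvate carrier, fell by 0.78 and 0.58. Of the 11 genes of pyruvate entry and use, 6 fell and 2 rose, with a median of -0.77. Pdk1, a kinase that inhibits pyruvate dehydrogenase, fell by 2.29 (adjusted p = 4.1e-10). Pdha1 and Pdhb, subunits of pyruvate dehydrogenase itself, fell by 1.48 and 1.21, and malic enzyme Me1 by 1.02. Dlat, the acetyltransferase subunit of the same complex, fell by 0.78. The genes that rose were Gpt2, an alanine aminotransferase, by 0.75 and Pdk4, another kinase that inhibits pyruvate dehydrogenase, by 0.70 (adjusted p = 5.01e-05 and 0.000535; both named after their values were seen). The inhibiting kinases Pdk1 and Pdk4 thus went in opposite directions.

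HIF-1, the oxygen-regulated factor, also drives glycolytic genes, so 13 of its targets outside glycolysis were read beside them. These are a selection and not all of its targets, and Pdk1, read above with pyruvate entry, is not among them. The part of HIF-1 in the changes was not tested. Of these, 2 rose and 1 fell in total ChREBP KO, where 5.35% of all probes were higher and 3.44% lower, and the median was 0.07. Bnip3, a mitophagy receptor, rose by 1.09 (adjusted p = 4.1e-06) and Higd1a by 0.34, whereas Egln3, an oxygen-sensing prolyl hydroxylase, fell by 1.17 (adjusted p = 3.02e-05). None of 5 factors that splice Pkm was called. In the ChREBPβ line, 0 genes of any of these 6 lists were called with limma, as were 0% of all probes.

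**Figure D5:**
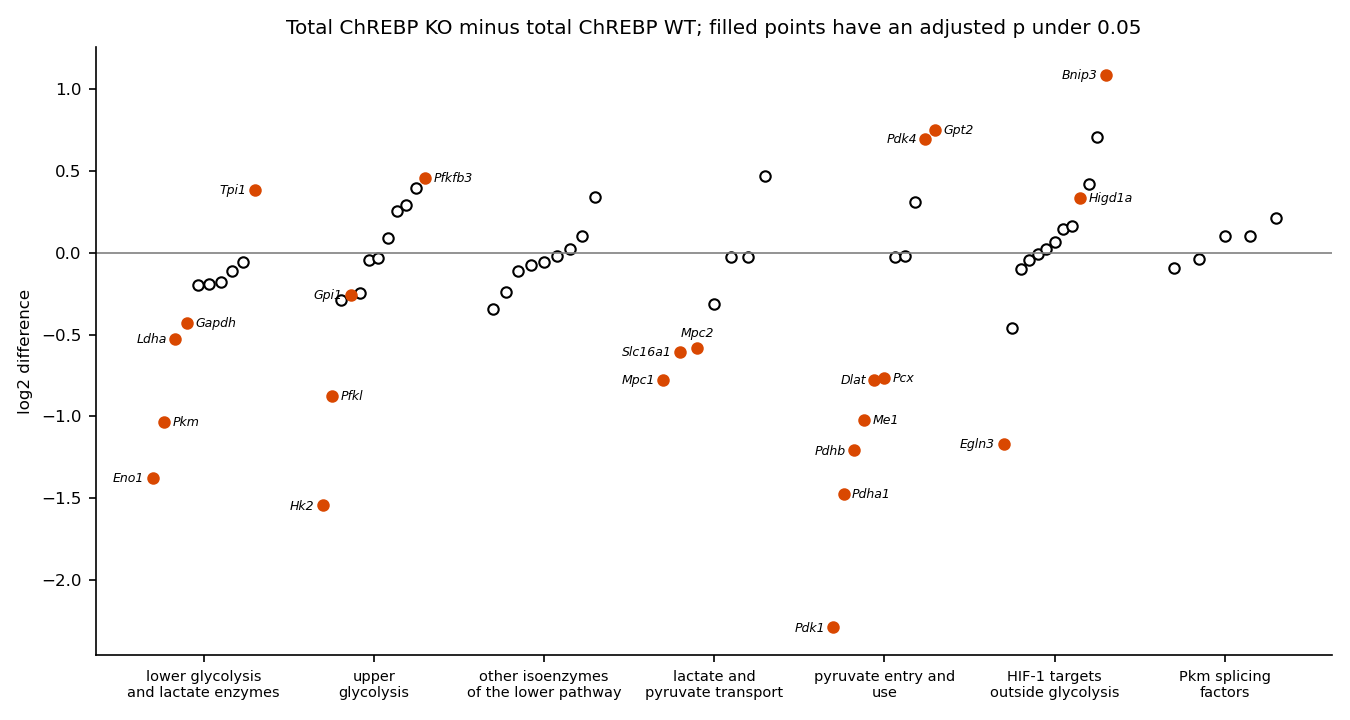
Difference between total ChREBP KO and total ChREBP WT (vertical axis, log2) for each reported gene of the lower pathway and of 6 further lists (horizontal axis), with 1 point per gene. Filled points are called and named; most of those of pyruvate entry lie below 0, and the lowest point is Pdk1 at -2.29.

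The genes whose pattern over the 25 arrays was most like each called member, after removal of wash batch means, were ranked among 26419 gene names. For Eno1 they were Eno1b (r = 0.996), a name whose probe shares sequence with Eno1, then an unnamed transcript and Ttc25 (r = 0.973). For Pkm they included Ccdc57 (r = 0.964) and Plin2 (r = 0.961), a lipid droplet protein. For Gapdh and Ldha the nearest were names made of identifiers, at r = 0.982 and r = 0.973 for the first of each. The second name for Gapdh also has a probe that shares sequence with a Gapdh probe. For Tpi1 they were Rnf11 (r = 0.89), Aldh1a7 (r = 0.886) and Carhsp1 (r = 0.874). The arrays share their groups and batches, so these values are descriptions.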

How the data were processed

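The sample titles assigned 25 arrays to 4 groups by mouse line and genotype. The authors hybridised Cy3-labelled cRNA to SurePrint mouse arrays and measured spots with Agilent Feature Extraction 10.10.1.1, and the deposited scanner files hold the intensity of each spot. The authors' deposited value table held log2 quantile-normalised intensities of 40561 probes, with replicated probes merged by their median. The lowest correlation of a column with the log2 median intensity of its array was 0.99982, and all 23 empty cells lay on spots flagged as outliers. This table was used as deposited.

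The fit used limma 3.58.1 (R 4.3.3) with empirical Bayes moderation, for all probes, on 4 group means plus wash batch, with 18 residual degrees of freedom. P-values were adjusted by Benjamini-Hochberg over all probes and called under 0.05. The fit was run on simulated data with independent noise to check its coding, which does not test the calls above. Intervals are at 95%, from the moderated t distribution of the fit.

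The members and lists were chosen with earlier results of these data known. Each gene was read by its probe with the highest mean, and up to 5 called genes per list, the largest first, were named. Alternatives were a rebuild from the scanner files, no filter on dim probes, normexp correction, scaling to the 75th percentile, no wash batch, slide or replicate number as a block, array weights, eBayes with trend, a liver score, a mean over probes, the arrays of 1 line, and each array left out. Of 149 list genes, 135 had a probe in the table, and 1 of them is not reported here or drawn. Marker lists of red cells, muscle, macrophages, lymphocytes, endothelium, mesothelium, kidney, testis and epididymis were also read. Protein sequences were not used here.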

Additional observations from a re-analysis of the deposited data

Results flagged for a closer look

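The total ChREBP effect and the ChREBPβ effect differed by the test of the difference for 4 genes, Eno1 (-1.36), Pkm (-1.08), Ldha (-0.48) and Gapdh (-0.42, all log2 differences between the effects). Each value is that of the brightest probe of the gene, and the other Gapdh and Ldha probes were further below 0. In 40 sets of arrays, 1 per gene and group, a single array stood apart in 2. Aldoa in total ChREBP WT replicate 4 was at 18.51, with the next array at 18.34. Pkm in total ChREBP KO replicate 7 was at 15.13, with the next at 14.94. About 1 in 20 such sets is expected by chance.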

How the results depend on the processing

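The counts of called genes for total ChREBP KO (5), for the difference of the effects (4) and for ChREBPβ KO (0) were the same under every alternative run. The count between the wild types, 8 in the main analysis, was 5 in the rebuild from the scanner files, 4 with no filter on dim probes, 5 with normexp correction, 5 with the replicate number as a block, 4 with the liver score, and 5 to 7 with 1 array left out. The members' median moved to -0.31 in the total ChREBP line with 75th percentile scaling, and between the wild types to 0.36 with that scaling, 0.39 with the liver score and 0.38 with a mean over probes. The cause was not tested.

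Replicate numbers were not used as a block in the main fit. Arrays with the same number correlated at -0.29 to 0.401 in their deviations from group means, which cannot show whether the numbers pair the mice. With the replicate number as a block, 5 genes were called for total ChREBP KO and 4 for the difference of the effects.

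Signs turned for genes with values near 0 and for Pklr, of which Pklr between the wild types alone was called. In the ChREBPβ line these were Ldhb (0.00826 with the replicate block), Gapdh (0.006345), Eno1 (0.0131) and Pklr (0.15) with the liver score, Gapdh with array weights (0.0203) and Pkm with the mean over probes (-0.00681). For total ChREBP KO against its wild type, Pklr was 0.61 with the liver score. In the difference of the effects, Ldhb was 0.00638 in the rebuild, 0.00798 with no filter and 0.00662 with normexp correction, Pgam1 0.0156 with the replicate block and Pgk1 0.000662 with the liver score. Between the wild types, Tpi1 was -0.0148 in the rebuild, -0.0152 with no filter and -0.0131 with normexp correction, and Pklr 0.59 with the liver score. With 1 array left out, the ChREBPβ line gave -0.0363 to 0.0353 for Gapdh, -0.048 to 0.0326 for Eno1, -0.00233 to 0.112 for Pkm and -0.125 to 0.0542 for Ldhb. Ldhb ran from -0.151 to 0.016 for total ChREBP KO against its wild type. The difference of the effects ran from -0.0877 to 0.00577 for Pgk1, -0.176 to 0.491 for Pklr and -0.119 to 0.0766 for Ldhb.

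The wide intervals of Pklr and Ldhb leave differences of up to 1.29 and 0.39 log2 units unresolved in the ChREBPβ line. Spots were not saturated, but the brightest probes of Gapdh and Ldha gave smaller changes than dimmer probes of the same genes.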
